A study of Homo sapiens with 6 samples.

Results

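The rows of the human mitochondrial genome were examined by RNA sequencing in MDA-MB-468, a breast cancer cell line of the triple-negative (no oestrogen, progesterone or HER2 receptor) and basal-like type. All rows of the count table whose symbol starts with MT- were taken, which gave 30 of 31122 rows: 13 mRNAs, 2 rRNAs and 15 of the 22 tRNAs. All 13 mRNAs, both rRNAs and 7 tRNA rows had enough counts to be tested. Libraries fell into 2 groups of 3. The parental-labelled libraries 1 to 3 (titles W1, W2 and W3) are labelled as unedited cells, genotype WT, from parallel wells of 1 culture plate. The KO-labelled libraries 1 to 3 (titles 11, 12 and OG) carry the genotype label GPR52 KO, for populations edited with CRISPR-Cas9 and a single guide, sgRNA1, against GPR52, an orphan receptor that signals through cAMP. Neither group had a further treatment in the labels, no library with a control guide was analysed here, and clonality and kinship of the edited populations are not stated. Editing, growth after editing and the label therefore cannot be told apart.

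The mitochondrial genome is a small circle transcribed from both strands into long precursors. Most of its mRNAs and rRNAs lie between tRNAs, and cutting out the tRNAs frees them. Each of the 13 mRNAs encodes a subunit of the respiratory chain or of ATP synthase, and partner subunits are encoded in the nucleus. The MT-ND genes encode subunits of complex I, which oxidises NADH. MT-CYB encodes cytochrome b of complex III, the MT-CO genes the 3 core subunits of cytochrome c oxidase (complex IV), and MT-ATP6 and MT-ATP8 membrane subunits of ATP synthase (complex V). The heavy-strand mRNAs carry short poly(A) tails, which in several of them complete the stop codon. The mRNA of MT-ND6, the 1 mRNA gene on the light strand, has little or no tail. Mitochondrial rRNAs carry at most a few added A residues, and tRNAs end in CCA. These libraries were made from poly(A)-selected RNA, so the rRNA and tRNA rows, and MT-ND6 in part, hold what passed that selection and do not measure the level in the cell.

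The 3′ ends of 5 mRNA genes are shown as examples of last codons encoded in part or in full. Each is given 5′ to 3′ with the genome-encoded part of the last codon in capitals. In the GENCODE 29 reference (GRCh38), 7 of the 13 mRNA genes encode the last codon in full and 6 only in part.
MT-ND1 (chrM:4249-4262, plus strand): ccccctcaaaccTA
MT-CO3 (chrM:9978-9990, plus strand): tgatgagggtctT
MT-ND4 (chrM:12125-12137, plus strand): gggttttcctctT
MT-CYB (chrM:15875-15887, plus strand): ctcaaatgggccT
MT-ND6 (chrM:14149-14163, minus strand): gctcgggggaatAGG

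In 2 places reading frames overlap on a shared mRNA, so reads there belong to both genes. The overlap is in capitals. It is 46 bases long between MT-ATP8 and MT-ATP6 and 7 bases long between MT-ND4L and MT-ND4.
MT-ATP8/MT-ATP6 (chrM:8515-8584, plus strand): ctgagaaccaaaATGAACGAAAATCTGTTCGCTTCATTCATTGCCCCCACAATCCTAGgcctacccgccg
MT-ND4L/MT-ND4 (chrM:10748-10778, plus strand): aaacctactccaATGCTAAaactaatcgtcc

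Libraries held 25637794 to 31692454 counts, and 17420 genes were tested with edgeR. The targeted gene went against its label: GPR52 had 9, 1 and 0 counts in the parental-labelled and 645, 694 and 724 in the KO-labelled libraries (log2 fold change 7.70, SE 0.35, edgeR adjusted p = 4.1e-06). An exchange of labels between the groups was not tested. Every direction is therefore that of the libraries labelled KO relative to those labelled parental, and says nothing about the state of GPR52. The 9 epithelial genes listed as a check of the line were counted in every library, from 99 counts (KRT6B) to 232650 (EGFR) in a library. Not all of them are particular to basal cells. Of the 9, 4 were higher (EPCAM, KRT5, KRT6B, KRT14), 2 lower (KRT18, CDH1) and 3 not called (KRT17, KRT8, EGFR), beside 21.0% of all genes higher and 19.8% lower. ESR1, the oestrogen receptor, had 238 to 305 counts under the parental and 43 to 94 under the KO label (edgeR log2 fold change -1.75). ERBB2, the HER2 gene, had 3166 to 3779 counts under the parental and 2859 to 3416 under the KO label and was not called (-0.12). PGR, the progesterone receptor, had no row. Blood and endothelial markers (3 genes) summed to 1.48 to 1.83 CPM (counts per 1e6 of the library total) under the parental and 0.501 to 0.770 under the KO label, most of it CDH5 (41, 41 and 38 counts against 19, 12 and 13, called lower). PTPRC had at most 9 counts and CD68 at most 2. The 3 fibroblast markers summed to 6.40 to 8.24 CPM under the parental and 23.9 to 28.2 under the KO label, nearly all of it COL1A1, with COL1A2 at 1 count in parental-labelled 2 and 0 elsewhere. The part that such markers have in the results was not tested. In 1 library, parental-labelled 2, several RNAs without a poly(A) tail were far above their values in the other libraries. These are given with the rRNA rows, and their bearing on those rows was not tested.

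As a whole, the mitochondrial genome gave a similar part of the reads in both groups. All MT- rows together took 7.37%, 7.75% and 7.68% of all gene counts in parental-labelled 1 to 3 and 7.50%, 7.20% and 7.45% in KO-labelled 1 to 3. The groups overlapped, at 7.60% ± 0.201 against 7.38% ± 0.160 (SD, n = 3 each; two-sided exact permutation p = 0.3). Its make-up differed. The 13 mRNAs took 6.42%, 6.59% and 6.72% of all counts under the parental label and 6.21%, 6.01% and 6.03% under the KO label. The KO-labelled libraries were thus lower without overlap, a difference of -0.492 percentage points (exact permutation p = 0.1, the smallest that 3 against 3 allows). The 2 rRNA rows moved the other way, from 1.02% ± 0.118 to 1.297% ± 0.115 of all counts. In bulk RNA, fewer cells of a type and less RNA per cell cannot be told apart, nor can fewer mitochondrial genomes and less transcript from each.

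Between groups, 9 of the 13 mRNAs passed the edgeR test, against a background of 40.8% of all genes tested. MT-ND1 and MT-ND5 were higher in KO-labelled libraries, where 21.0% of genes were. MT-CO1, MT-CO2, MT-CO3, MT-ATP6, MT-ATP8, MT-CYB and MT-ND6 were lower, where 19.8% of genes were. The remaining 4, MT-ND2, MT-ND3, MT-ND4L and MT-ND4, did not pass, and all 4 belong to complex I. For 12 of the 13 mRNAs the groups did not overlap in normalised counts, which held for 54.4% of all genes tested. The median log2 fold change was -0.26 over the 13 mRNAs and 0.01 over all genes tested. P-values measure the spread between these 6 libraries, which may be technical among the wells of 1 plate, and ± gives the SD over 3 libraries throughout.

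**Figure D1:**
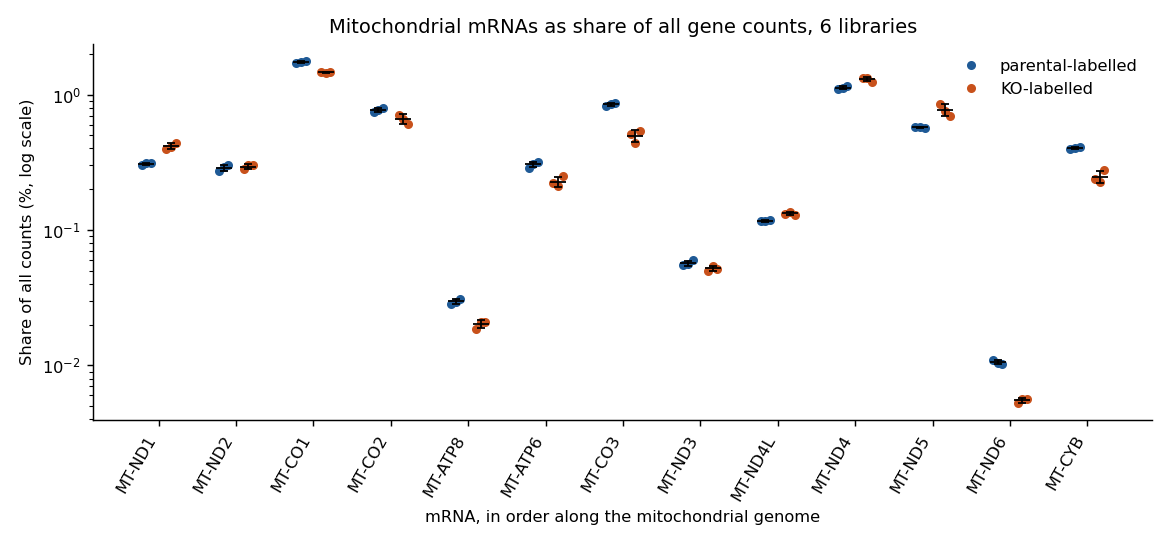
Share of all gene counts (%, log axis) of each mitochondrial mRNA, in order along the genome; points are the 6 libraries, black bars the mean and SD of the 3 libraries of a group. MT-CO1 took the largest share in both groups (1.75% and 1.46%) and MT-ND6 the smallest (0.0106% and 0.00553%), and only for MT-ND2 did the groups overlap.

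Complex I is the largest complex of the chain and takes 7 mitochondrial subunits. MT-ND1, a subunit near the quinone-binding end, took 0.302%, 0.310% and 0.312% of all counts in the parental-labelled libraries and 0.397%, 0.412% and 0.439% in the KO-labelled ones. Every KO-labelled library was above every parental-labelled one, and the log2 fold change was 0.39 (SE 0.07, edgeR adjusted p = 0.00304). As a part of MT- counts, MT-ND1 went from 4.05% ± 0.0481 to 5.64% ± 0.308. MT-ND5, a proton-pumping subunit at the far end of the membrane arm, took 0.574%, 0.577% and 0.570% of all counts under the parental label and 0.853%, 0.757% and 0.699% under the KO label. The KO-labelled values were all higher but spread, with library 1 highest, and the log2 fold change was 0.38 (SE 0.08, edgeR adjusted p = 0.00805). Its part of MT- counts went from 7.55% ± 0.204 to 10.4% ± 1.0003.

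MT-ND4 and MT-ND4L, also membrane-arm subunits, are read from 1 mRNA. MT-ND4 took 1.09%, 1.12% and 1.15% of all counts in parental-labelled and 1.33%, 1.33% and 1.25% in KO-labelled libraries. The groups did not overlap, but the edgeR test was not passed (log2 fold change 0.17, SE 0.07, adjusted p = 0.0904). It was passed with library totals, with no filter on low counts, with DESeq2, with limma voom and without KO-labelled 3, with edgeR, DESeq2 or limma adjusted p from 0.00803 to 0.0402. MT-ND4L took 0.116%, 0.116% and 0.119% against 0.132%, 0.137% and 0.130% of all counts, also without overlap, with a log2 fold change of 0.14 (SE 0.06, edgeR adjusted p = 0.0989). Its test was passed with library totals (edgeR adjusted p = 0.0393) and without KO-labelled 3 (edgeR adjusted p = 0.0292). Within MT- counts both had a larger part under the KO label, MT-ND4 17.6% ± 0.834 in place of 14.8% ± 0.289 and MT-ND4L 1.80% ± 0.0851 in place of 1.55% ± 0.0409.

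MT-ND2 and MT-ND3 are the other heavy-strand mRNAs of complex I. MT-ND2, a membrane-arm subunit, took 0.271%, 0.292% and 0.303% of all counts under the parental label and 0.280%, 0.301% and 0.300% under the KO label. The groups overlapped, and the log2 fold change of -0.02 (SE 0.07, edgeR adjusted p = 0.865) changed sign with the scaling. MT-ND3 took 0.0554%, 0.0560% and 0.0597% against 0.0502%, 0.0546% and 0.0518%. Its KO-labelled values lay just under the parental-labelled ones, with a log2 fold change of -0.17 (SE 0.07, edgeR adjusted p = 0.0733, and 0.0427 without KO-labelled 3). Its parts of MT- counts, 0.751% ± 0.0277 and 0.707% ± 0.0460, overlapped between groups.

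MT-ND6 had the largest fold difference of the 13 and the lowest level. It had 3385, 2684 and 3275 counts in parental-labelled 1 to 3 and 1367, 1581 and 1576 in KO-labelled 1 to 3. All KO-labelled libraries lay far below the parental-labelled ones, at 0.00553% ± 0.000235 of all counts against 0.0106% ± 0.000381. MT-ND6 fell by 0.98 on the log2 scale (SE 0.07, edgeR adjusted p = 4.0e-05). Its part of MT- counts went from 0.140% ± 0.00873 to 0.0750% ± 0.00434. Its gene ends against that of MT-ND5 on the other strand, and the strand setting of the counting is not given in the sources used here, so reads from the opposite strand in its row cannot be told apart.

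Complex IV takes MT-CO1, MT-CO2 and MT-CO3 as its core, the first 2 of which bind its copper and haem centres. MT-CO1 took 1.72%, 1.75% and 1.76% of all counts in parental-labelled and 1.46%, 1.45% and 1.46% in KO-labelled libraries, close together within each group. It fell by 0.30 (SE 0.07, edgeR adjusted p = 0.00934) on the log2 scale, and from 23.0% ± 0.376 to 19.8% ± 0.350 of MT- counts. MT-CO2 took 0.740%, 0.769% and 0.793% against 0.712%, 0.666% and 0.604% of all counts. KO-labelled 1 was close to the parental-labelled values and KO-labelled 3 furthest from them. Its log2 fold change of -0.26 (SE 0.08, edgeR adjusted p = 0.0344) did not pass under 8 of 16 alternatives, among them every one that left out a parental-labelled library, and is the least settled of the 9 calls. MT-CO3 showed the largest shift among MT- counts. It took 0.826%, 0.847% and 0.873% of all counts under the parental label and 0.508%, 0.441% and 0.541% under the KO label, far apart in relation to the spread of either group. MT-CO3 fell by 0.82 (SE 0.09, edgeR adjusted p = 2.9e-04) on the log2 scale and went from 11.2% ± 0.215 to 6.72% ± 0.573 of MT- counts, a shift of -4.45 percentage points.

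Complex V subunits MT-ATP6, part of the proton channel, and MT-ATP8, a short membrane subunit, share the mRNA whose overlap is printed above. MT-ATP6 took 0.288%, 0.309% and 0.318% of all counts under the parental label and 0.222%, 0.210% and 0.249% under the KO label. MT-ATP8 took 0.0286%, 0.0296% and 0.0310% against 0.0185%, 0.0211% and 0.0210%. Both were lower in every KO-labelled library than in any parental-labelled one. MT-ATP6 fell by 0.47 (SE 0.09, edgeR adjusted p = 0.00337) and MT-ATP8 fell by 0.60 (SE 0.08, edgeR adjusted p = 6.3e-04) on the log2 scale. Of MT- counts, MT-ATP6 went from 4.01% ± 0.116 to 3.07% ± 0.237 and MT-ATP8 from 0.391% ± 0.0114 to 0.274% ± 0.0239.

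MT-CYB, the only mitochondrial mRNA of complex III, lies last on the heavy-strand side. It took 0.397%, 0.401% and 0.412% of all counts in parental-labelled libraries and 0.239%, 0.227% and 0.278% in KO-labelled ones. The drop was of the same order in all 3 KO-labelled libraries, with library 3 nearest to the parental-labelled values. MT-CYB fell by 0.75 (SE 0.09, edgeR adjusted p = 4.2e-04) on the log2 scale, and from 5.31% ± 0.114 to 3.35% ± 0.325 of MT- counts.

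**Figure D2:**
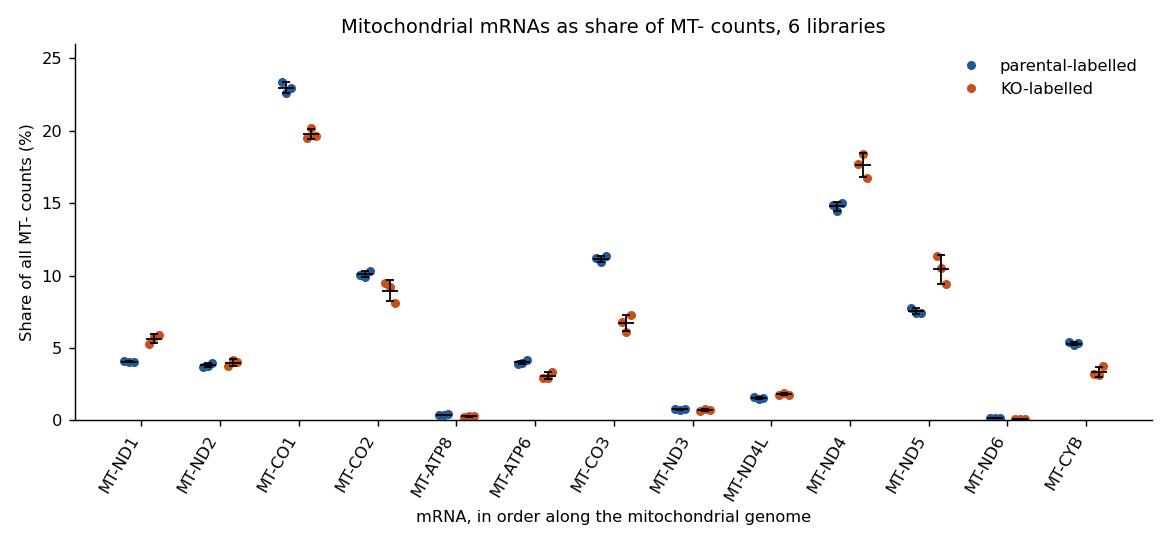
Share of all MT- counts (%) of each mitochondrial mRNA, with points for the 6 libraries and bars for the mean and SD of each group. MT-CO3 went from 11.2% to 6.72% and MT-CO1 from 23.0% to 19.8%, while MT-ND5 went from 7.55% to 10.4% and MT-ND4 from 14.8% to 17.6%.

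Set side by side as parts of the mitochondrial pool, the mRNAs divided in part by complex. The 7 complex I mRNAs took 37.7%, 37.7% and 37.6% of MT- mRNA counts in parental-labelled 1 to 3 and 49.1%, 49.8% and 47.7% in KO-labelled 1 to 3. The parental-labelled values were nearly identical, at 37.7% ± 0.0559, and the KO-labelled ones were 11.2 percentage points higher, at 48.8% ± 1.09. With the authors' FPKM in place of counts the same part was 33.2% ± 0.175 and 43.7% ± 1.19. Complex IV mRNAs went from 51.1% ± 0.0560 to 43.0% ± 0.381 of MT- mRNA counts, complex V from 5.09% ± 0.139 to 4.06% ± 0.362 and complex III from 6.13% ± 0.0441 to 4.07% ± 0.462. Parts of a sum are not independent of each other. Of all counts, complex I mRNAs took 2.48% ± 0.0516 and 2.97% ± 0.0885, and the 6 mRNAs of the other complexes took 4.10% ± 0.0950 and 3.11% ± 0.0825. All 6 of the latter passed the edgeR test as lower, against 1 of 7 for complex I, MT-ND6, beside 19.8% of all genes tested. The division by complex was chosen after the values were seen, and exact permutation p-values were 0.1 for each of these parts. Of the single mRNAs, 11 had parts of MT- counts that did not overlap between groups, 4 higher and 7 lower (exact permutation p = 0.1 each, 0.118 adjusted over the 13). The 4 higher were MT-ND1, MT-ND4L, MT-ND4 and MT-ND5. The 7 lower were MT-ND6 and the 6 mRNAs of the other complexes, while MT-ND2 and MT-ND3 of complex I overlapped. Of all genes tested, 54.4% did not overlap in normalised counts, and no such share was computed for parts of MT- counts.

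Along the genome the differences varied between neighbours. From MT-RNR2 and MT-ND1 (log2 fold changes of 0.32 and 0.39) the values went through MT-ND2 (-0.02), MT-CO1 (-0.30) and MT-CO2 (-0.26) to MT-ATP8 (-0.60), MT-ATP6 (-0.47) and MT-CO3 (-0.82). From there they went through MT-ND3 (-0.17), MT-ND4L (0.14) and MT-ND4 (0.17) to MT-ND5 (0.38), and MT-CYB at the end was at -0.75. MT-RNR1, which precedes MT-RNR2, was at 0.08 (SE 0.26). MT-ND6, on the light strand between MT-ND5 and MT-CYB, was at -0.98. Ratios between genes that share an mRNA overlapped between groups. The ratio of MT-ATP8 to MT-ATP6 counts was 0.0975 ± 0.00174 and 0.0895 ± 0.00949 (exact permutation p = 0.4), and that of MT-ND4L to MT-ND4 was 0.105 ± 0.00155 and 0.102 ± 0.00242 (exact permutation p = 0.4). Some ratios across the genome moved further than the spread of libraries. MT-ND1 to MT-CO3 was 0.366, 0.366 and 0.357 in parental-labelled and 0.781, 0.935 and 0.812 in KO-labelled libraries. MT-ND5 to MT-CYB, heavy-strand neighbours on either side of MT-ND6, was 1.45, 1.44 and 1.38 against 3.57, 3.34 and 2.52. In both ratios every KO-labelled library lay clear above the parental-labelled ones, which differed little among themselves. These pairs were chosen after the values were seen. Of other ratios, MT-ND5 to MT-ND6, MT-CO1 to MT-CO3 and MT-ND6 to MT-CYB did not overlap between groups. MT-ND1 to MT-RNR2 did, at 0.335 ± 0.0239 and 0.352 ± 0.0284 (exact permutation p = 0.6), as did MT-RNR1 to MT-RNR2 (exact permutation p = 0.7).

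**Figure D3:**
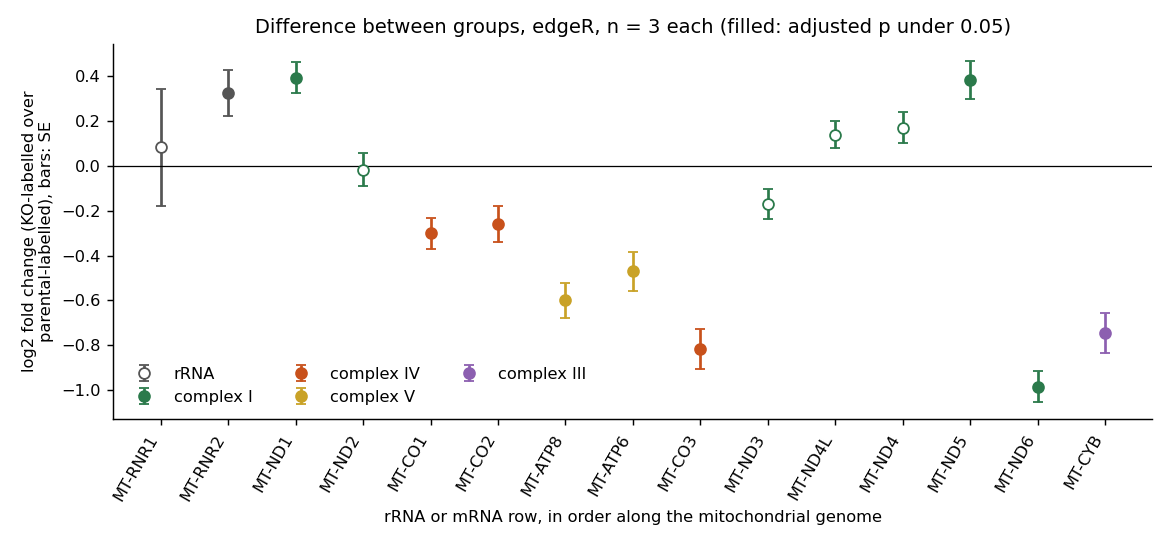
Log2 fold change (KO-labelled over parental-labelled, edgeR, n = 3 each, bars: SE) of the 2 rRNA and 13 mRNA rows in order along the mitochondrial genome, coloured by complex; filled points passed the test and open points did not. MT-ND1 and MT-ND5 lie highest among the mRNAs at 0.39 and 0.38, and MT-CO3, MT-CYB and MT-ND6 lowest at -0.82, -0.75 and -0.98.

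Levels of different genes can be compared only per length, for which the authors' FPKM values were used. In parental-labelled libraries the complex IV mRNAs led, with 12447 ± 399.6 FPKM for MT-CO3, 12237 ± 436 for MT-CO2 and 11685 ± 241 for MT-CO1. With counts per kilobase in place of FPKM the order of these was the reverse, MT-CO1 at 11321 ± 141, MT-CO2 at 11216 ± 388 and MT-CO3 at 10824 ± 300.3 CPM per kilobase. MT-ATP8 (9203 ± 75.2), MT-ND4L (7999.8 ± 201), MT-ND4 (7742 ± 263) and MT-ATP6 (6687 ± 297) followed. MT-CYB (3387 ± 102), MT-ND1 (3344 ± 68.7) and MT-ND2 (3191 ± 178) were within their spread of each other, above MT-ND3 (2687 ± 105) and MT-ND5 (2553 ± 32.3), and MT-ND6 was lowest at 161 ± 5.90 FPKM. Under the KO label the order differed. MT-CO2 (10609 ± 891) and MT-CO1 (9647 ± 19.2) were followed by MT-ND4L (9164 ± 143) and MT-ND4 (9039 ± 318), above MT-CO3 at 7323 ± 758 FPKM. MT-ND1 (4547 ± 235), MT-ND5 (3440 ± 323) and MT-ND2 (3263 ± 140.0) stood above MT-ND3 (2475 ± 76.9) and MT-CYB (2056 ± 216), and MT-ND6 was at 85.6 ± 3.35 FPKM. The FPKM levels of the shortest genes, and their places in these orders, depend on how length was treated. By CPM per kilobase, parental-labelled MT-ATP8 was at 1436 ± 59.1 and MT-ND3 at 1649 ± 67.9, both below MT-ND5 at 3164 ± 18.1. MT-ND4L was at 3953 ± 61.3, below MT-ATP6 at 4477 ± 224. Under the KO label MT-ND4L was at 4482 ± 118, below MT-CO3 at 6336 ± 652. MT-ND3 was there at 1508 ± 65.0, below MT-CYB at 2171 ± 234. FPKM over CPM per kilobase was 6.42 for MT-ATP8, 2.02 for MT-ND4L and 1.63 for MT-ND3 in parental-labelled libraries, and 0.80 to 1.49 for the other mRNAs. This ratio overlapped between groups for all 13 mRNAs. For MT-ATP8 it was 6.42 in parental-labelled and 6.78 in KO-labelled libraries, and 6.16 to 7.18 over single libraries. Its KO-labelled mean over its parental-labelled mean was 0.717 by FPKM and 0.680 by CPM per kilobase.

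Spread among libraries was uneven. The coefficient of variation of normalised counts had a median over the 13 mRNAs of 3.14% in parental-labelled and 5.64% in KO-labelled libraries, and was wider in the latter for 11 of them. Over all genes tested with counts in both groups the medians were 6.01% and 13.1%, and 75.8% were wider. MT-ND5 went from the narrowest spread, 0.695%, to 9.49%, and MT-CYB from 2.29% to 11.1%. Without KO-labelled 3 (title OG), 12 of the 13 mRNAs were called, 4 higher and 8 lower, and calls over all genes went up too, to 9367 of 17803 tested from 7105 of 17420.

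The 2 rRNA rows are residual in poly(A)-selected RNA. MT-RNR2, the large-subunit rRNA, had 267104, 258433 and 281160 counts in parental-labelled and 308341, 299884 and 363019 in KO-labelled libraries, or 0.872%, 1.01% and 0.887% against 1.19%, 1.07% and 1.31% of all counts. The KO-labelled libraries were higher, with a log2 fold change of 0.32 (SE 0.10, edgeR adjusted p = 0.0338), a call lost without parental-labelled 1 (edgeR adjusted p = 0.136), parental-labelled 3 (0.135) or KO-labelled 1 (0.0527). MT-RNR1, the small-subunit rRNA, had 21856, 38228 and 23816 counts against 25762, 32067 and 30081. Parental-labelled 2 stood above all other libraries, with 1491 CPM where parental-labelled 1 and 3 had 714 and 751. Its log2 fold change was 0.08 (SE 0.26, edgeR adjusted p = 0.827) with all libraries and 0.51 (edgeR adjusted p = 0.0101) without parental-labelled 2.

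Several RNAs that lack a poly(A) tail stood out in the same library, though not all of them: VTRNA1-2 had 38, 26 and 38 counts in parental-labelled 1 to 3. RMRP, the RNA of RNase MRP, had 7, 507 and 32 counts in parental-labelled 1 to 3 and 6, 13 and 14 in KO-labelled 1 to 3. RN7SK, a small nuclear regulator of transcription, had 33, 1303 and 77 against 21, 52 and 42. Summed over 17 such structural RNAs on the list, parental-labelled 2 had 182 CPM, parental-labelled 1 and 3 had 10.5 and 13.4, and KO-labelled libraries had 6.12 to 8.41. Replication-dependent histone mRNAs, listed as also ending without a tail, differed among themselves. Summed over 16 of them, parental-labelled 2 had 82.9 CPM and the other parental-labelled libraries 70.2 and 74.9. KO-labelled 1 to 3 had 91.5, 71.9 and 157 CPM, so KO-labelled 1 and 3 were above parental-labelled 2. HIST1H2BK, which held the most counts of these, had 952, 804 and 1061 counts in parental-labelled 1 to 3. In KO-labelled 1 to 3 it had 901, 725 and 1582. Several rows with few counts were highest in parental-labelled 2, such as HIST1H1B (5, 62 and 9) and HIST1H1E (5, 43 and 9). The part that carry-over of untailed RNA had in the rRNA rows was not tested. The single RNAs named in this paragraph were picked from the list after their values were seen.

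**Figure D4:**
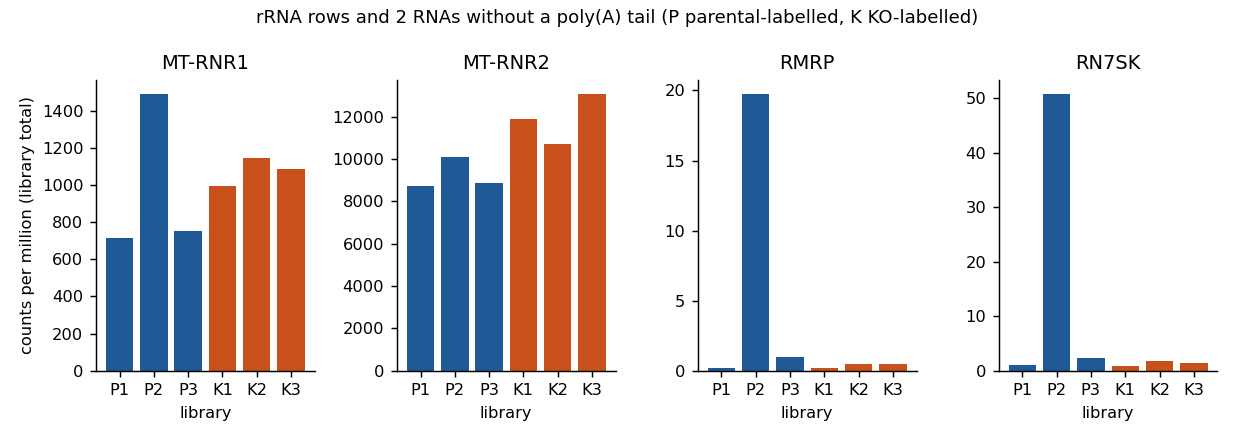
CPM (counts scaled to the library total) for MT-RNR1, MT-RNR2 and 2 RNAs without a poly(A) tail in each library (P1 to P3 parental-labelled, K1 to K3 KO-labelled; single libraries, no error bars; each axis starts at 0 and has its own scale). P2 is highest for MT-RNR1 (1491), RMRP (19.8) and RN7SK (50.8) but not for MT-RNR2, where K3 is highest (13086).

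The tRNA rows held few counts. All 15 rows together had 645, 547 and 735 counts in parental-labelled and 621, 523 and 725 in KO-labelled libraries, 0.00219% ± 1.2e-04 and 0.00229% ± 3.8e-04 of all counts, which overlapped (exact permutation p = 0.6). Mature tRNA genes of this genome are 59 to 75 bases long in the reference, and 2 are shown: MT-TT, the threonine tRNA that follows MT-CYB and holds most of the counts, and MT-TQ, the glutamine tRNA, whose test was passed.
MT-TT (chrM:15888-15953, plus strand): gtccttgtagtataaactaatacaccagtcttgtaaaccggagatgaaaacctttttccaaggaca
MT-TQ (chrM:4329-4400, minus strand): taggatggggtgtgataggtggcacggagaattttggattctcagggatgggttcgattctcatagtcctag

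MT-TT had 424, 379 and 480 counts against 466, 403 and 555, and did not pass the test (log2 fold change 0.21, SE 0.13, edgeR adjusted p = 0.226). Of the 7 tested tRNA rows 1 was called, beside 40.8% of all genes tested. MT-TQ, encoded on the light strand near MT-ND1, had 70, 47 and 79 counts in parental-labelled and 31, 26 and 33 in KO-labelled libraries. It fell by 1.05 on the log2 scale (SE 0.21, edgeR adjusted p = 0.00481), close to the value of MT-ND6. Other light-strand tRNAs with enough counts did not pass: MT-TS1 was at -0.75 (SE 0.27, edgeR adjusted p = 0.0582), MT-TP at -0.31 (SE 0.22, adjusted p = 0.292) and MT-TE at 0.38 (SE 0.32, adjusted p = 0.371). Reads in these rows may come from precursors or from longer RNA that runs across them, on either strand, and were not told apart. The FPKM table lists MT-TQ at 0 in 5 of 6 libraries although it had counts in each, so its values were not used for tRNAs.

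Copies of mitochondrial genes in nuclear chromosomes can take reads from these rows. In the GENCODE reference, the part of 50-base windows that also occur in transcripts of other genes was 49.5% for MT-CO1, 46.7% for MT-ATP6, 43.6% for MT-ND2, 30.6% for MT-CO3, 28.98% for MT-CO2 and 22.1% for MT-ND1. It was 17.9% for MT-ND6, 14.04% for MT-RNR2, 8.23% for MT-ATP8, 4.76% for MT-ND5, 3.54% for MT-ND4 and 1.19% for MT-CYB, and no window was shared by MT-ND3, MT-ND4L or MT-RNR1. The part that shared reads have in the differences was not tested. The 48 rows named as nuclear copies held 2160, 2086 and 2454 counts in parental-labelled and 2642, 2589 and 2801 in KO-labelled libraries, which equals 0.1005% ± 0.00468 and 0.133% ± 0.00401 of the MT- total, a sum that does not include them. MTND4P12 had 866, 816 and 1098 against 1042, 1207 and 998 counts, and MTRNR2L12 had 991, 1011 and 1056 against 1297, 1123 and 1505. Of the 8 copies with at least 10 counts in each library of a group, 1 passed the edgeR test, beside 40.8% of all genes tested. It was MTRNR2L12 (log2 fold change 0.42, edgeR adjusted p = 0.0343). The other copies of MT-RNR2 were at -0.28 (MTRNR2L1), -0.04 (MTRNR2L2) and -0.04 (MTRNR2L8), and MTND2P28 was at 0.16, MTND5P11 at 0.41, MTND4P12 at 0.29 and MTATP6P1 at -0.85, none of them called. The tables treat such copies differently. MTATP6P1 had 29, 18 and 40 counts against 10, 17 and 19, yet 964, 1004 and 1041 FPKM against 740, 678 and 820. Its FPKM was a constant part of that of MT-ATP6, 15.002% ± 0.125 and 14.9% ± 0.141, so the FPKM of that row followed MT-ATP6.

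Nuclear genes that make, process and keep mitochondrial RNA were called about as often as genes in general. Of the 42 genes on that list 10 were higher, 8 lower and 24 not called, beside 40.8% of all genes called, with a median log2 fold change of 0.03. Without parental-labelled 1 there were 8 calls, 3 higher and 5 lower, where 4922 of 17771 genes were called. LRPPRC, which with SLIRP binds and stabilises heavy-strand mRNAs, rose from 409 ± 14.8 to 605 ± 48.2 normalised CPM, a log2 fold change of 0.56 (SE 0.08, edgeR adjusted p = 7.9e-04), while SLIRP was at 0.06 (SE 0.09) and not called. The mitochondrial RNA polymerase POLRMT was higher, at 0.40 (SE 0.13, edgeR adjusted p = 0.0384). TFB2M, which helps it open promoters, was lower at -0.43 (SE 0.11, adjusted p = 0.0144). TFAM at 0.11 (SE 0.07), the elongation factor TEFM at -0.07 (SE 0.11) and MTERF1 (row MTERF), a transcription terminator, at -0.07 (SE 0.09) were not called, nor were the poly(A) polymerase MTPAP at 0.20 (SE 0.08) and the degradosome genes PNPT1 at 0.03 (SE 0.08) and SUPV3L1 at 0.12 (SE 0.08). Among the called members with the smallest p were TFB1M, which methylates the small-subunit rRNA (13.2 ± 0.305 to 6.85 ± 0.786 CPM), HSD17B10, a subunit of mitochondrial RNase P (95.7 ± 3.82 to 55.6 ± 6.39 CPM), and MRM2 (row FTSJ2), a methylase of the large-subunit rRNA (52.6 ± 0.594 to 82.4 ± 5.80 CPM).

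Genes of mitochondrial DNA upkeep numbered 21, of which 7 were higher, 4 lower and 10 not called (median log2 fold change 0.15), beside 21.0% of all genes higher and 19.8% lower. POLG, the catalytic subunit of the DNA polymerase, rose from 59.0 ± 1.86 to 113 ± 3.93 CPM, RNASEH1, which removes RNA from hybrids with DNA, from 54.4 ± 1.43 to 96.8 ± 4.81 CPM, and the deoxyguanosine kinase DGUOK from 44.4 ± 2.76 to 72.8 ± 4.45 CPM. MPV17, an inner-membrane protein, had a log2 fold change of 0.58 (SE 0.07). Regulators of mitochondrial gene programmes were mostly not called, with 1 higher, 1 lower and 6 not called of 8 tested, the called ones being GABPB1 at 0.33 (SE 0.10) and GABPA at -0.49 (SE 0.13), partner subunits of 1 transcription factor. Of 75 tested mitochondrial ribosomal proteins 9 were higher, 14 lower and 52 not called (median -0.05), beside the same 21.0% and 19.8% of all genes, with MRPS30 at 0.67 (SE 0.07), MRPL24 at -0.79 (SE 0.08), MRPS6 at -0.66 (SE 0.08) and MRPS11 at 0.55 (SE 0.07) having the smallest p. The called genes named in this paragraph had edgeR adjusted p from 4.0e-05 to 0.0250.

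Nuclear subunits of complexes I to V held 5 of 76 higher, 24 lower and 47 not called (median log2 fold change -0.15), beside 21.0% of all genes higher and 19.8% lower. For complex I this was 1 higher, 9 lower and 26 not called of 36 (median -0.11), and for complex IV 2 higher, 6 lower and 4 not called of 12 (median -0.34). Complex II, which takes none of the MT- mRNAs, had 0 higher, 1 lower and 3 not called of 4. Complex III had 1 higher, 1 lower and 7 not called of 9, and complex V 1 higher, 7 lower and 7 not called of 15. COX7B fell from 148 ± 4.21 to 66.1 ± 2.48 CPM and COX6B1 from 231 ± 2.08 to 143 ± 2.48 CPM, both subunits of complex IV. ATP5C1, the ATP synthase gamma subunit, fell from 225 ± 1.33 to 117 ± 2.86 CPM, and the complex I subunit NDUFB11 from 70.6 ± 2.33 to 39.4 ± 0.297 CPM (edgeR adjusted p from 1.3e-05 to 7.7e-05 for these 4).

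**Figure D5:**
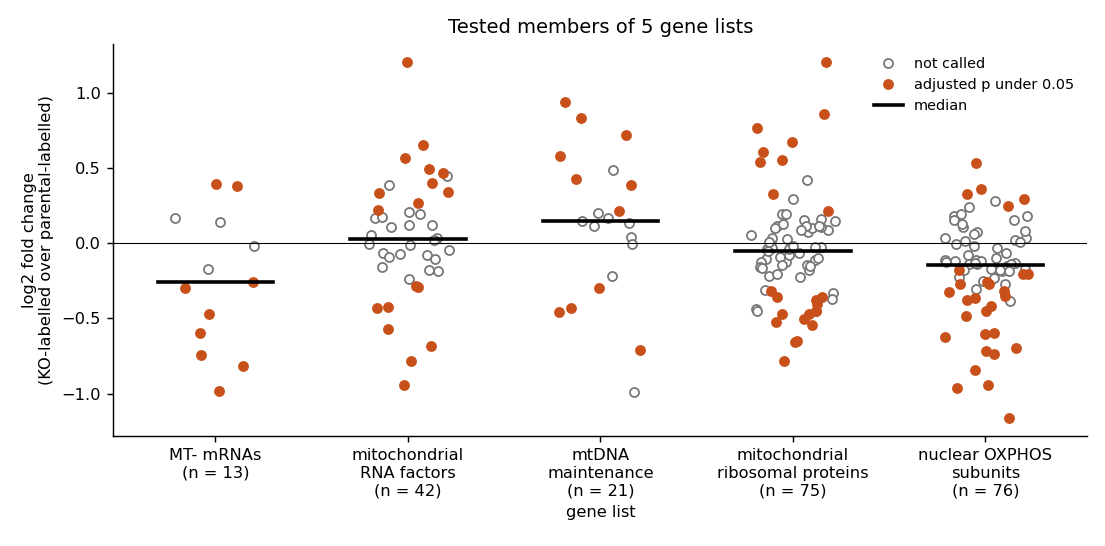
Log2 fold change (KO-labelled over parental-labelled) of each tested member of 5 gene lists, with filled points for genes that passed the edgeR test, open points for those that did not, and a bar for the median (horizontal scatter is for legibility only). Medians were -0.26 for the 13 mitochondrial mRNAs, 0.03 for mitochondrial RNA factors, 0.15 for mitochondrial DNA maintenance, -0.05 for mitochondrial ribosomal proteins and -0.15 for nuclear OXPHOS (oxidative phosphorylation) subunits.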

How the data were processed

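Per the labels' protocols, total RNA was column-purified and made into directional libraries after poly(A) isolation. The authors deposited whole-number counts per gene symbol and FPKM values (scaled to transcript length and library size), 1 column per sample. Per the submitters' processing notes, STAR 2.4.0f1, SAMtools 0.1.19, Cufflinks 2.0.2 and hg19 were used. The annotation, counting program, strand setting and treatment of reads with several placements have no statement in the sources used here. The names of the deposited counts and FPKM values hold the word Unique, which is not explained further. Counts were tested with edgeR 4.0.16 in R 4.3.3 (filterByExpr with a minimum count of 10 and total of 15, TMM, quasi-likelihood F test, Benjamini-Hochberg over 17420 genes, threshold 0.05). The SE is the log2 fold change divided by the square root of F. Fits were tested on simulated data with few changed genes and equal spread in both groups, which differs from these libraries. Single values were compared by two-sided exact permutation. Alternatives used other normalisations, filters, DESeq2 1.42.0, limma 3.58.1 (also on log2(FPKM + 1) and log2(FPKM + 0.1)) and each library left out.

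Sequences, lengths and shared windows came from GENCODE 29 on GRCh38, a later build than the authors', and were used for no other purpose. Genes were named by rule: every mRNA and rRNA row, tRNA rows and nuclear copies with at least 10 counts in each library of a group, 10 fixed nuclear factors, and up to 4 called members with the smallest p per list. The members and lists were chosen with earlier results of these data known. Libraries within a group are treated as independent.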

Additional observations from a re-analysis of the deposited data

How the results depend on the processing

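MT-ND1, MT-ND5, MT-ATP6, MT-ATP8, MT-CO3, MT-CYB and MT-ND6 kept their direction and call under all 16 alternatives, and MT-CO1 under 15 (limma on log2(FPKM + 1) gave an adjusted p of 0.0511). The number of mRNAs called ranged from 7 to 12, and from 8 to 12 with a library left out. MT-ND2, never called, was at 0.018 with upper quartile scaling, 0.025 with library totals, 0.033 with limma on log2(FPKM + 1) and log2(FPKM + 0.1), and from -0.070 to 0.017 with a library left out. MT-RNR1 ranged from -0.11 (without parental-labelled 1) to 0.51 (without parental-labelled 2). MT-TQ was at 2.73 and 3.84 with limma on log2(FPKM + 1) and log2(FPKM + 0.1), where it is listed at 0 in 5 libraries. Nuclear RNA factors called ranged from 8 to 19 with a library left out, the 8 without parental-labelled 1, and the cause was not tested. The tRNA difference ranged from -5.6e-05 to 3.2e-04 percentage points with a library left out, negative without KO-labelled 3. All genes called ranged from 4879 to 9367 with a library left out, against 7105. The complex I part of MT- mRNA counts was 10.5 to 11.8 points higher by FPKM or with a library left out, alternatives chosen after seeing the data. Low counts in the tRNA rows limit what they can show. No paired analysis was possible because the edited populations' titles carry no replicate number shared with the parental wells.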
